A study of Mus musculus with 18 samples.

Results

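The 10 genes described here, Atf4, Atf5, Ddit3, Trib3, Asns, Chac1, Sesn2, Fgf21, Psat1 and Slc7a11, belong to the integrated stress response and were chosen by gene symbol from the 46078 gene identifiers of each deposited table. All 10 were found. RNA was sequenced from 18 samples of female mice: primary tail-tip fibroblasts (3 controls and 3 mutants) and organs (spleen, liver and brain) collected on postnatal day 1 (2 controls and 2 mutants each). Both Xist alleles were deleted in mutants and 1 allele was deleted in controls, so no group was free of the deletion. The control columns of the tables are headed WT, but the sample labels give the heterozygous deletion and were followed. The way the deletion was made and the age of the fibroblast donors were not given in the sources used here. Heart is listed in the series text where the sample labels list brain. The replicates were biological, and Xist is the RNA that silences 1 X chromosome in female cells.

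The integrated stress response starts when a kinase (PERK, GCN2, PKR or HRI) phosphorylates the translation factor eIF2. Most protein synthesis then slows, while the mRNA of the transcription factor ATF4 is translated more, and ATF4 switches on genes for amino acid supply, redox balance and, through CHOP, cell death. In liver the pathway is known for its answer to amino acid shortage and for the hormone FGF21, and HRI, the kinase that senses heme, is abundant in red cell precursors, which the newborn liver and spleen still hold.

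Values are the authors' scaled read counts, called signal, which lie on the scale of CPM, read counts scaled to the same library total. The libraries held 12.4 M to 29.2 M reads in genes, and 1 read had a signal of 0.0343 to 0.0751. In liver Xist itself read 594 and 730 with 1 allele deleted and 178 and 257 with both deleted. In brain it read 666 and 683 with 1 allele deleted and 3.62 and 4.15 with both deleted. It was also lower in every mutant fibroblast and spleen library than in every control. The extent of the deletion was not given in the sources used here. Mean Xist signal of mutants was 0.328 of the control mean in liver. It was 0.0866 in fibroblasts, 0.0722 in spleen and 0.00576 in brain. Why more Xist signal remained in mutant liver was not tested. The liver libraries held all 8 hepatocyte markers listed for this purpose, with a summed signal of 115710 to 136366, and the brain libraries all 6 neuron markers, with 4391 to 5094. All 6 fibroblast markers were present in the fibroblast libraries. In spleen 6 to 8 of 8 lymphocyte markers reached a signal of 1. In these bulk samples, fewer cells of a type and less RNA per cell cannot be told apart.

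The members have different roles, and positions are on GRCm38 with GENCODE release M21 gene models. Atf4 (chromosome 15, 80255184 to 80257541, plus strand) encodes the central transcription factor. Atf5 (chromosome 7, 44812256 to 44816658, minus strand) encodes a related factor that is likewise controlled at translation and is linked to mitochondrial stress. Ddit3 (chromosome 10, 127290774 to 127296288, plus strand) encodes CHOP, a factor acting downstream of ATF4. Trib3 (chromosome 2, 152337422 to 152344032, minus strand) encodes a pseudokinase that feeds back on ATF4 and CHOP and binds AKT. Asns (chromosome 6, 7675169 to 7693254, minus strand) encodes asparagine synthetase, and Psat1 (chromosome 19, 15904678 to 15947337, minus strand) an aminotransferase of serine synthesis. Chac1 (chromosome 2, 119351229 to 119354381, plus strand) encodes an enzyme that degrades glutathione, and Slc7a11 (chromosome 3, 49892526 to 50443614, minus strand) the cystine and glutamate exchanger that supplies its synthesis. Sesn2 (chromosome 4, 132492032 to 132510501, minus strand) encodes Sestrin 2, a leucine sensor that restrains mTORC1. Fgf21 (chromosome 7, 45613886 to 45615490, minus strand) encodes a hormone secreted by the liver.

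ATF4 binds, with a C/EBP partner, a composite element that is searched for here as TGATGNAA on both strands. In the RefSeq promoters of GRCm38.p6, taken from 250 bases before to 50 after the start, these letters stood in 1304 of 32851 promoters (3.97%) and in those of 5 of the 10 members, Asns, Slc7a11, Chac1, Fgf21 and Trib3. The other members, Atf4, Atf5, Ddit3, Psat1 and Sesn2, held no match in this window. The sequences below are the stretches upstream of the start of the 4 members with a match there, followed by those of Sesn2 and Trib3, the members with the highest liver fold changes. Each runs 5′ to 3′ on the gene's strand, and capitals mark the matches.
Asns, chr6:7693220-7693249, minus strand: gttgggtcccagccacaTGATGAAActtcc
Slc7a11, chr3:50443619-50443718, minus strand: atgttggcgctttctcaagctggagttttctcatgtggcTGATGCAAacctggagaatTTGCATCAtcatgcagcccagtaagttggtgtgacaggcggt
Chac1, chr2:119351042-119351141, plus strand: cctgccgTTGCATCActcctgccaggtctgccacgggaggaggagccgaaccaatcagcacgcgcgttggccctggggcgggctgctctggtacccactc
Fgf21, chr7:45615551-45615650, minus strand: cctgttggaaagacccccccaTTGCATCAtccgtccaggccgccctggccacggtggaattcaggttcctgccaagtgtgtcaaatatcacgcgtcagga
Sesn2, chr4:132510507-132510606, minus strand: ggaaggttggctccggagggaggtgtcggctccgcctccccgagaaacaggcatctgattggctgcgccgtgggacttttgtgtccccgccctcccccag
Trib3, chr2:152344061-152344160, minus strand: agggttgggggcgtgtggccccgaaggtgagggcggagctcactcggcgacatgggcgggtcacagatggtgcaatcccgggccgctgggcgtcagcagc

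Slc7a11 held a facing pair of matches, at 66 to 59 and 47 to 40 bases before the start, and Asns a single one at 23 to 16 bases before it. The Chac1 and Fgf21 matches lay 193 to 186 and 139 to 132 bases before the start, and both read TTGCATCA. The Trib3 match, TTACATCA, lay 15 to 22 bases after the start and so outside the stretch printed. The antioxidant response element, searched as TGACNNNGC on both strands, stood in 12.4% of promoters and in those of Asns and Sesn2. The endoplasmic reticulum stress element, searched on both strands as CCAAT and CCACG with 9 bases of any kind between them, stood in 0.119% and in no member's window. These matches describe letters only, and no match says nothing of whether a factor binds the gene.

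Among controls the members differed widely by tissue, here given as RPKM, counts scaled for library total and exon length, so that genes can be set side by side. Each tissue's table was normalized on its own, so levels across tissues are descriptive. Atf5 was the highest member in liver, with 263 and 468 RPKM, and ran to 86.2 to 127 in fibroblasts, 19.3 and 25.0 in spleen and 9.72 and 12.3 in brain, with no overlap between tissues. Atf4 was highest in fibroblasts (76.8 to 109) and spleen (71.8 and 99.0), which overlapped, and lower in liver (41.4 and 59.3) and brain (45.4 and 46.4), which also overlapped. Slc7a11 was highest where Atf5 was lowest, with 2.73 and 3.34 RPKM in brain and 0.0440 and 0.0729 in liver. Sesn2 ran from 13.8 to 22.7 in fibroblasts, to 6.57 and 8.44 in spleen, 3.88 and 4.65 in liver and 3.12 and 3.70 in brain. Trib3 was at 12.2 to 15.3 in fibroblasts and at 0.577 and 1.10 in brain, with liver (2.63 and 3.88) and spleen (2.36 and 3.42) overlapping between them. Psat1 and Chac1 were likewise highest in fibroblasts, at 42.2 to 48.1 and 5.26 to 15.9 RPKM, although Chac1 overlapped spleen (1.96 and 7.45). Asns and Ddit3 had their highest means in spleen, at 60.5 and 15.4, although the spleen controls lay far apart for both. Fgf21 was found above 1 RPKM in a single control library, liver control 1.

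In mutant liver 2 members stood above both controls with mean signals over 3-fold higher, and 1 stood far below them. Sesn2 read 16.2 and 13.3 in control livers against 72.3 and 43.1 in mutant livers. Trib3 read 5.60 and 8.12 in controls against 25.4 and 17.3 in mutants. Both mutants lay above both controls for each gene, as they did for 23.5% of all tested liver genes. Mutant 1 was the higher of the mutants. The mean signal of Sesn2 was 3.91-fold higher in mutants (log2 fold change 1.89, SE 0.32) and that of Trib3 3.12-fold higher (1.57, SE 0.31), with fold changes fitted by limma on log2(signal + 0.5). Fgf21 read 3.63 and 0.643 in controls compared with 0.0476 and 0.0686 in mutants, which rest on 57, 16, 1 and 2 reads. Both mutant livers were thus at or under 3 reads, the number that a count of 0 allows, and Fgf21 passed the filter on low values only through its controls. The pooled ratio of control to mutant was 30.5 (exact 95% interval 10.02 to 151, for counting error only).

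**Figure D1:**
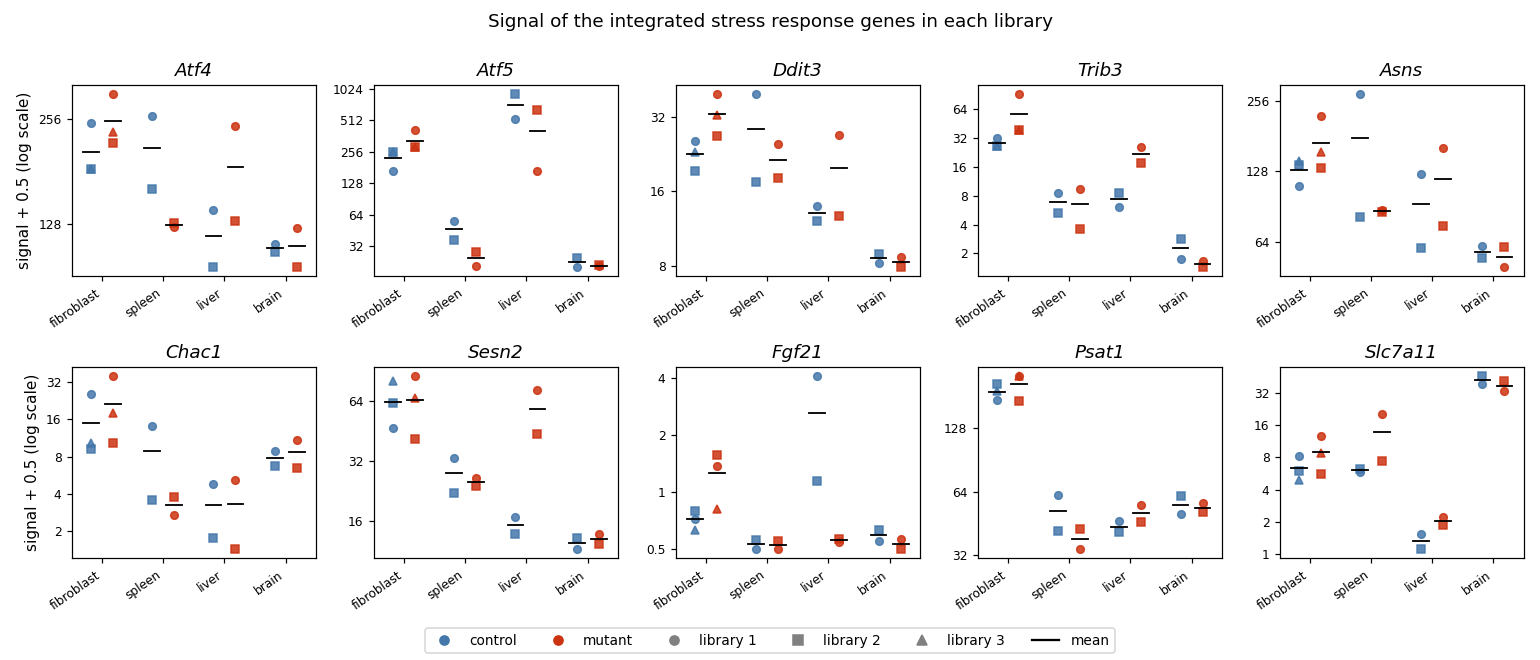
Signal plus 0.5 on a log scale of the 10 members in each of the 18 libraries, by tissue, with controls in blue, mutants in red and a bar at each group's mean. The liver points of Sesn2 and Trib3 lie apart by genotype (Sesn2 13.3 and 16.2 against 43.1 and 72.3), whereas the brain points of Sesn2 lie together (11.1 to 13.3).

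No member passed limma's Benjamini-Hochberg adjusted threshold of 0.05 in the main liver fit, which had no replicate block and called 0 of 15075 genes (0.0%). The adjusted p was 0.408 for Sesn2 and 0.494 for Trib3 by limma, and edgeR's quasi-likelihood test on recovered reads also called none of the members or of all genes. At an unadjusted limma p under 0.05 these 2 members were higher, against 4.39% of all genes. DESeq2 on the recovered reads called Sesn2 (adjusted p = 0.00125) and Trib3 (adjusted p = 0.0108) higher, as it did 0.955% of genes tested. No test is given for Fgf21, since only its control livers brought it past the filter. Leaving out 1 library, which makes a group of 1 whose spread is taken from the other group, ended several of these calls. Sesn2 kept its call without control 1 (DESeq2 adjusted p = 0.012) or mutant 2 (0.00178) and lost it without control 2 (0.146) or mutant 1 (0.47). Trib3 lost it whichever library was left out, with DESeq2 adjusted p of 0.0522 without mutant 2, 0.147 without control 2, 0.44 without control 1 and 1.00 without mutant 1. Atf5, not called with all 4 livers, had a DESeq2 log2 fold change of -2.11 without mutant 2.

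The transcription factors differed less, and their groups overlapped in liver. Atf4 read 140.2 and 96.2 in controls against 243 and 130.3 in mutants (log2 fold change 0.61, SE 0.39, limma adjusted p = 0.853). Atf5 read 527 and 919 in controls against 169 and 647 in mutants (-1.07, SE 0.71, limma adjusted p = 0.855). Mutant 1 thus held the highest Atf4 and the lowest Atf5 signal of the 4 livers. Ddit3 read 13.5 and 11.6 in controls compared with 26.4 and 12.1 in mutants, so that mutant 1 alone stood apart. Ddit3 overlaps Mars by 68 bases on the opposite strand, Atf5 overlaps Il4i1 by 272, and the strand setting of the counting was not given in the sources used here, which leaves a share of their reads uncertain. Sesn2 overlaps the antisense-class gene Gm12981, annotated on the same strand, over 6089 bases, but that gene had a signal of at most 2.33 in liver.

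Among the amino acid and glutathione genes, Slc7a11 was low but without overlap, at 1.02 and 0.603 in control livers against 1.71 and 1.37 in mutants (log2 fold change 0.65, SE 0.32). Its mean was 0.81 in controls and 1.54 in mutants, so only the mutants brought it past the filter, and no test is given. Psat1 read 45.8 and 40.8 in controls against 54.7 and 45.4 in mutants. Asns read 125 and 59.9 in controls compared with 161 and 74.6 in mutants. Chac1 read 4.26 and 1.25 in controls against 4.66 and 0.927 in mutants. Asns and Chac1 were high in the libraries numbered 1 of both genotypes and low in those numbered 2. Over all tested liver genes, deviations of same-numbered libraries from their group mean correlated at 0.58, so such a split was not particular to these 2 members. The 8 erythroid markers, all detected in each liver, followed the same split, with a summed signal of 5567 and 1592 in controls against 6125 and 2512 in mutants, and 7 of 8 had a fold change above 0. Their part in the Asns and Chac1 levels was not tested. Sesn2 was likewise higher in the library numbered 1 within each genotype (16.2 against 13.3 in controls, 72.3 against 43.1 in mutants), and the part of the erythroid signal in its level was not tested. Connective tissue and vessel markers lay higher in mutant livers. All 6 fibroblast markers and 5 of 6 endothelial markers were separated higher, beside 23.5% of all tested genes. The fibroblast markers summed to 386 and 464 in control livers compared with 628 and 538 in mutant livers, and the endothelial markers to 471 and 537 compared with 609 and 601. The part of either list in the Sesn2 and Trib3 differences was not tested. Summed hepatocyte markers overlapped, at 136366 and 122123 in controls against 135410 and 115710 in mutants.

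**Figure D2:**
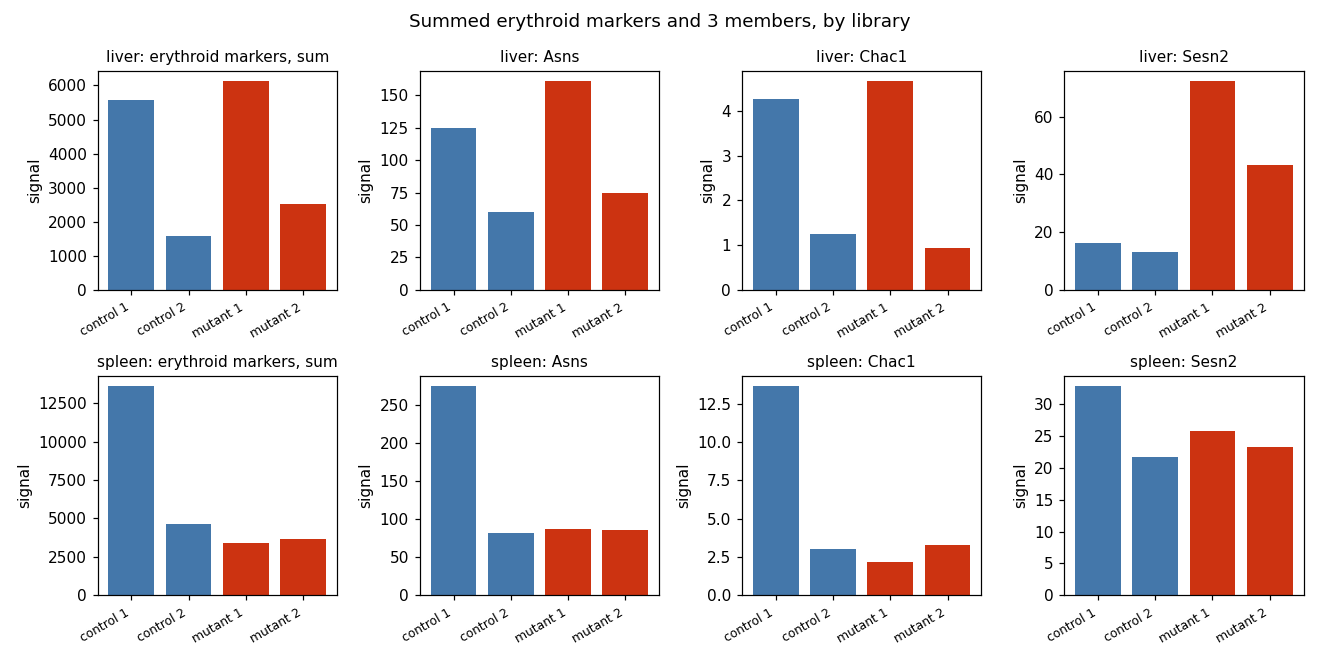
Summed signal of 8 erythroid markers and signal of Asns, Chac1 and Sesn2 in the 4 liver libraries (top) and 4 spleen libraries (bottom), controls in blue and mutants in red. Asns and Chac1 bars are tall where the erythroid bar is tall (liver libraries 1, spleen control 1), and the liver Sesn2 bars are tall in both mutants.

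Over the 8 members with a mean signal of 1 or more in both groups, which leaves out Fgf21 and Slc7a11, the liver log2 fold changes had a median of 0.42, with 6 of 8 above 0, beside a median of 0.05 and 55.9% above 0 over all tested genes. Of these 8, Sesn2 and Trib3 had groups that did not overlap, with mutants higher, as 23.5% of all tested genes had. Liver mutant 1 held the highest signal for 7 of the 8, whereas it did so for 29.1% of all tested genes. Without that library the median of the same 8 was 0.01, without control 1 it was 0.75, and without mutant 2 it was 0.97.

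Brain showed small differences for most members. Sesn2 read 11.1 and 12.7 in control brains against 13.3 and 11.8 in mutant brains. Atf4 read 112 and 106 in controls compared with 125 and 96.2 in mutants, and Ddit3 7.70 and 8.40 in controls against 8.14 and 7.40 in mutants. In each of these 3 the groups overlapped. Slc7a11, whose level in control brain was the highest of the 4 tissues, read 38.9 and 46.0 in controls against 33.4 and 40.7 in mutants, also overlapping. Trib3 was the only brain member with separated groups, at 1.26 and 2.31 in controls compared with 1.16 and 0.936 in mutants (log2 fold change -0.52, SE 0.31, limma adjusted p = 1.00). Mutants were separated lower for 16.3% of all tested brain genes. Asns spanned 49.4 to 60.6 and Psat1 49.6 to 60.7 over the 4 brains, Atf5 19.8 to 24.3 and Chac1 5.97 to 10.5. Fgf21 had at most 3 reads in any brain library and was not tested.

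Of the 9 members tested in brain none was called by limma (0.0237% of all genes called), by DESeq2 (0.242%) or by edgeR (0.0237%), and none had an unadjusted limma p under 0.05, as 4.07% of genes did. Their median log2 fold change was -0.05, with 3 of 9 above 0, beside -0.01 over all tested genes. The fold changes of the members other than Trib3 lay between -0.20 for Slc7a11 and 0.13 for Chac1. Without mutant 2 the median was 0.02 and without mutant 1 it was -0.11.

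**Figure D3:**
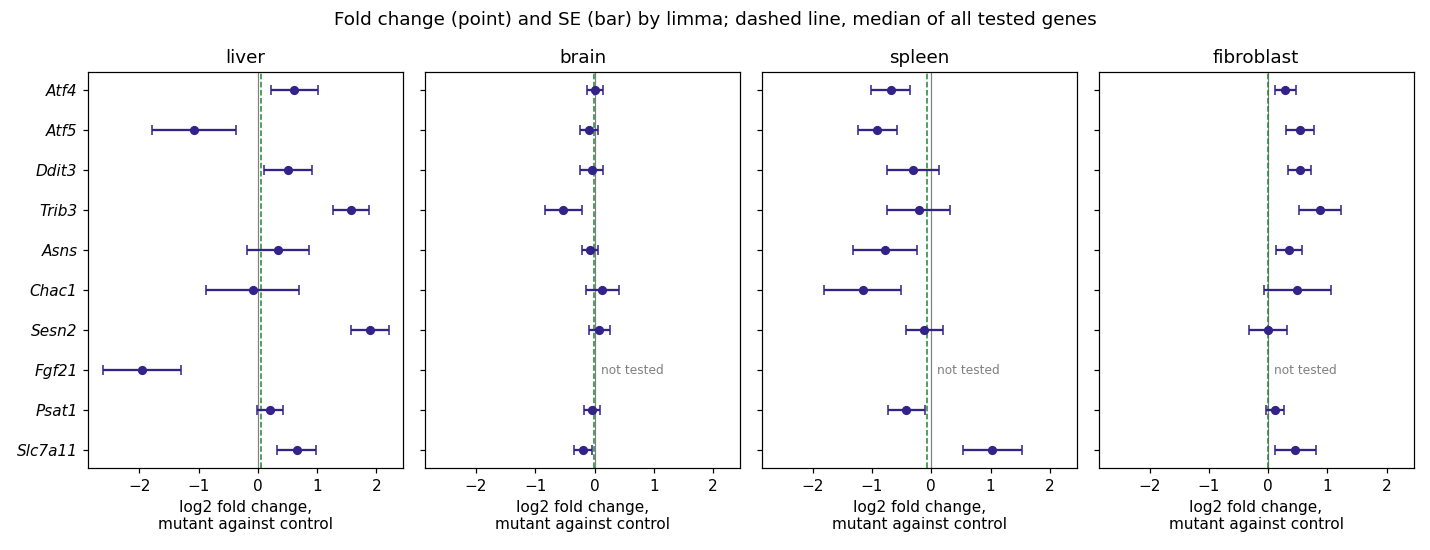
Log2 fold change, mutant against control, of each member in liver, brain, spleen and fibroblasts, as fitted by limma, with bars for 1 SE on each side and a dashed line at the median of all tested genes. In liver Sesn2 (1.89) and Trib3 (1.57) stand to the right and Fgf21 (-1.96) to the left, and in brain the points other than Trib3 (-0.52) lie near 0. No test is given for liver Fgf21, whose mutants rest on 1 and 2 reads, or for liver Slc7a11.

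The difference between the liver and brain responses was fitted directly, as the liver fold change minus the brain fold change, for the 9 members measured in both tissues. It was 1.82 for Sesn2 (SE 0.37, limma adjusted p = 0.366) and 2.09 for Trib3 (SE 0.45, limma adjusted p = 0.425). Limma called neither, and it called 6 of 13451 genes (0.0446%). DESeq2 called both responses higher in liver than in brain (Sesn2 adjusted p = 0.0141, Trib3 adjusted p = 0.0146), as it did 0.528% of the genes. Trib3 was low in brain, with 23 and 54 reads in controls and 18 and 21 in mutants. Over the 8 fits that left out 1 library, the limma difference ran from 1.45 to 2.19 for Sesn2, highest without liver mutant 2. For Trib3 it ran from 1.75 to 2.43. The DESeq2 call for Sesn2 was kept without liver control 1 or liver mutant 2 and lost without any of the other 6 libraries (adjusted p = 0.0633 and 0.0778 without liver control 2 and liver mutant 1, and 0.17 to 0.374 without a brain library). The DESeq2 call for Trib3 was lost without liver control 1 (0.087), liver mutant 1 (0.209), brain control 2 (0.548), brain mutant 1 (0.151) or brain mutant 2 (0.456). Without liver mutant 2 the DESeq2 difference of Atf5 was -2.05.

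The other members gave smaller or less certain differences between liver and brain. Slc7a11, low in liver, differed by 0.85 (SE 0.33), and no test is given, since only its liver mutants brought it past the filter. Atf4 differed by 0.61 (SE 0.44), Ddit3 by 0.55 (SE 0.47), Asns by 0.41 (SE 0.60) and Psat1 by 0.25 (SE 0.24). Atf5 differed by -0.98 (SE 0.79) and Chac1 by -0.21 (SE 0.95). Slc7a11 aside, none of these passed in limma, DESeq2 or edgeR, and edgeR called no member tested for this difference (0.0297% of all genes called). Replicate livers lay further apart than replicate brains, with chi-squares of their counts per degree of freedom of 164 in controls against 125 in mutants, against 15.9 and 9.56 in brain.

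In spleen the members mostly lay lower in mutants, and a single control library held most of the highest values. Asns read 275 and 81.3 in controls against 87.4 and 85.5 in mutants. Chac1 read 13.6 and 3.04 in controls compared with 2.18 and 3.27 in mutants. Ddit3 read 39.0 and 16.9 in controls against 24.3 and 17.6 in mutants. For all 3 genes control 1 stood above the other libraries and control 2 lay within or near the mutants. Atf4 (261 and 161 in controls, 126 and 129 in mutants) and Atf5 (55.6 and 36.6 in controls, 20.4 and 27.7 in mutants) were the 2 members whose mutants lay below both controls, against 21.9% of all tested genes. Slc7a11 went the other way without overlap, at 5.31 and 5.78 in controls against 19.8 and 6.97 in mutants, against 18.3% of genes, with mutant 1 far above the rest. Sesn2 (32.8 and 21.7 in controls, 25.8 and 23.4 in mutants) and Trib3 (8.13 and 4.77, then 9.01 and 3.06) overlapped.

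No spleen member was called by limma (0.0% of 16578 genes), edgeR (0.0%) or DESeq2 (1.1%), and Atf5 was the 1 member with an unadjusted limma p under 0.05, where 1.57% of genes were lower at that level. The Atf5 log2 fold change was -0.91 (SE 0.33, limma adjusted p = 0.763). The median of the 9 tested members was -0.42, with 1 of 9 above 0, beside -0.07 and 43.5% over all tested genes. Control 1 held the highest signal for 7 of 9 members, against 40.0% of genes. Without control 1 the median was 0.09, and without control 2 it was -0.90. Without control 2, control 1 was the only control and the spread came from the mutants alone. Calls of that fit are therefore not given. Erythroid markers were highest in the same library. All 8 had a fold change below 0, and their summed signal was 13592 in control 1, 4618 in control 2, and 3425 and 3638 in mutants. Pancreatic acinar markers summed to 1101 in that same control 1 and to 9.06 in control 2. They summed to 16.1 in mutant 1 and, highest of all, to 8427 in mutant 2. Fibroblast markers summed to 1761 and 2082 in controls and to 4747 and 2893 in mutants, highest in mutant 1, the library with the highest Slc7a11. All 6 fibroblast and 5 of 6 endothelial markers were separated higher in mutant spleens, beside 18.3% of all tested genes. The part of these marker lists in the spleen values was not tested.

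In tail-tip fibroblasts most members lay higher in mutants, again with a single library ahead. Trib3 read 31.5, 26.3 and 26.3 in controls against 93.1, 38.3 and 38.2 in mutants. Atf5 read 166, 256 and 254 in controls against 411, 285 and 284 in mutants. Ddit3 read 25.1, 18.7 and 22.6 in controls compared with 39.2, 26.1 and 32.0 in mutants. These 3 members had mutants above every control, against 2.07% of all tested genes, with log2 fold changes of 0.87 (SE 0.36) for Trib3, 0.54 (SE 0.23) for Atf5 and 0.53 (SE 0.19) for Ddit3. Sesn2 did not differ in this way, at 46.3, 62.2 and 80.0 in controls against 84.9, 40.8 and 65.8 in mutants. Fgf21 was below the filter, with 14 reads over the 3 controls and 47 over the 3 mutants. Its mutants, at 0.882, 1.08 and 0.319, lay above its controls, at 0.225, 0.299 and 0.134, and the pooled ratio of mutant to control was 3.42 (exact 95% interval 1.85 to 6.73, for counting error only).

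No fibroblast member was called by limma (0.0% of 13077 genes), edgeR (0.0%) or DESeq2 (0.0229%), and Trib3 and Ddit3 had an unadjusted limma p under 0.05, where 0.405% of genes were higher at that level. The median over 9 tested members was 0.46, with 8 of 9 above 0, beside -0.00 and 48.9% over all tested genes. Mutant 1 held the highest signal for all 9, against 24.4% of genes, and without it the median was 0.15. Atf4 (302, against 184 to 248 in controls), Asns (220, against 111 to 142), Chac1 (35.5, against 8.67 to 25.1) and Slc7a11 (12.2, against 4.45 to 7.68) were each above every control in that library. Mutant 2 lay within the range of the controls for Atf4, Asns, Chac1 and Slc7a11, whereas mutant 3 lay above every control for Asns (154) and Slc7a11 (8.21) and within their range for Atf4 and Chac1. The 6 fibroblast markers were also highest there, with a summed signal of 34628 beside 24495 and 21819 in the other mutants and 19143 to 21256 in controls. Their part in the member values was not tested.

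**Figure D4:**
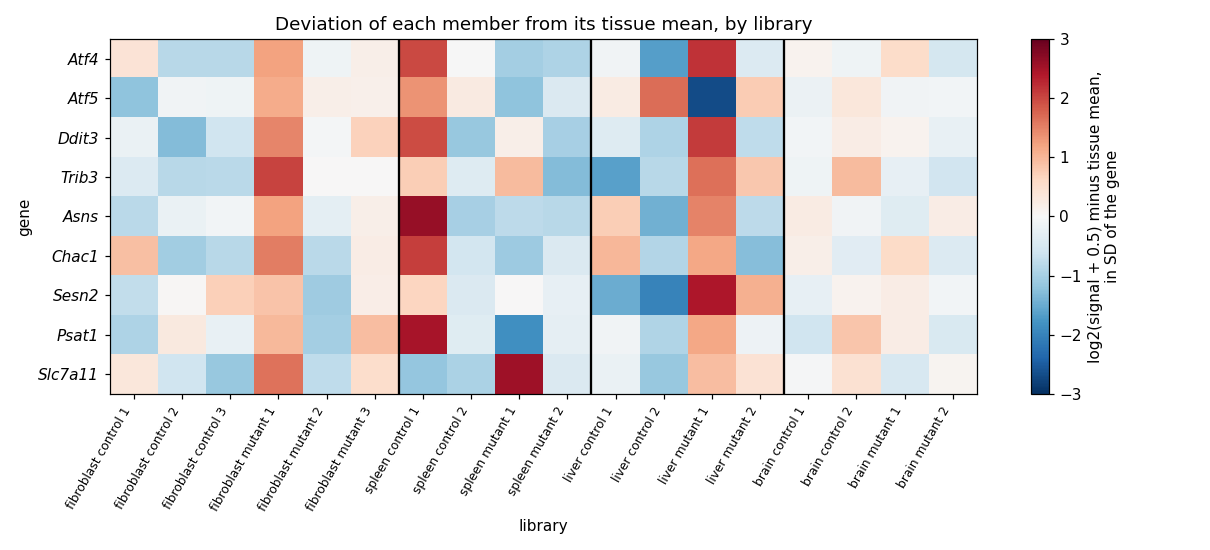
Deviation of 9 members from their tissue mean in each of the 18 libraries, on the log2(signal + 0.5) scale in SD of the gene, red above and blue below, with lines between tissues. Fibroblast mutant 1 is red in all 9 rows, spleen control 1 in 8 rows, and in liver Sesn2 and Trib3 are blue in both controls and red in both mutants.

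Members varied together from library to library to different degrees. After each tissue's mean was taken out, the correlation of a member with the mean of the other 8 over the 18 libraries was 0.90 for Ddit3, 0.85 for Atf4, 0.81 for Asns, 0.73 for Psat1 and 0.69 for both Chac1 and Trib3. It was 0.58 for Sesn2, 0.20 for Slc7a11 and -0.19 for Atf5. These are descriptions over libraries that share tissue, genotype and depth. Of 11430 other genes, the 5 whose profile was most like the members' mean were Sars (Pearson r 0.94), Gars (0.93), Gm9833 (0.91), Slc3a2 (0.88) and Ybx3 (0.88). Sars and Gars encode the seryl- and glycyl-tRNA synthetases, and Slc3a2 the heavy chain that pairs with SLC7A11. Gars read 473 in fibroblast mutant 1 and 253 to 341 in the other fibroblasts, and in spleen 192 in control 1 and 93.4 to 100.4 in the others.

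Other genes of the pathway were read from lists chosen with earlier results of these data known. None of the lists held a gene called by limma or edgeR within any tissue. Among 19 other ATF4 and CHOP targets, 17 lay above 0 in mutant liver, with a median log2 fold change of 0.55 and 11 separated higher, beside 55.9% above 0 and 23.5% separated higher over all tested genes. DESeq2 called 1 of them higher, as it did 0.955% of all tested genes. That gene was Ddit4, which encodes REDD1, a stress-induced inhibitor of mTORC1. It read 6.49 and 8.36 in control livers, then 164 and 84.4 in mutant livers (log2 fold change 3.91 with SE 0.37). Its adjusted p was 0.174 by limma and 1.2e-15 by DESeq2. Its mutants stood above both controls in spleen as well, at 88.8 and 115 against 11.4 and 23.0 (2.60, SE 0.39, DESeq2 adjusted p = 5.2e-07), and in brain its 4 libraries overlapped between 37.7 and 48.9. Ddit4 is also a known glucocorticoid target. The list's other leading liver genes were Jdp2 (8.14 and 8.88 in controls, 19.0 and 15.4 in mutants), Herpud1 (142 and 259, then 482 and 425) and Cebpb (53.9 and 87.1, then 157 and 125), each separated and none of them called by DESeq2. In spleen 16 of 18 tested genes of this list lay above 0 with a median of 0.43, in fibroblasts 14 of 19 with 0.20, and in brain 9 of 17 with 0.00, beside 43.5%, 48.9% and 46.1% of all tested genes above 0.

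Amino acid genes were mixed in liver. Of 11 tested genes of serine, one-carbon and amino acid synthesis, 7 lay above 0, beside 55.9% of all tested genes. Their median was 0.11, beside 0.05. DESeq2 called Got1, the cytosolic aspartate aminotransferase, at 634 and 415 in control livers against 2405 and 1584 in mutant livers (log2 fold change 1.93, SE 0.39, DESeq2 adjusted p = 0.00234, limma adjusted p = 0.515). Gpt2, a mitochondrial alanine aminotransferase, was separated higher in 3 tissues. It read 41.5 and 35.9 against 63.7 and 61.4 in liver, 5.93 and 5.90 against 14.1 and 12.2 in spleen, and 35.4 to 43.3 against 50.8 to 69.6 in fibroblasts. Of all tested genes 23.5% were separated higher in liver, 18.3% in spleen and 2.07% in fibroblasts. Neither limma nor DESeq2 called Gpt2 in any tissue. Slc38a2, a neutral amino acid transporter, read 102 and 159 in control livers compared with 742 and 205 in mutant livers, so that mutant 1 stood far above the rest. Over 9 tested transporters 7 lay above 0 in liver, beside 55.9% of all tested genes, with a median of 0.29.

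The 18 aminoacyl-tRNA synthetases showed small shifts, mostly of 1 sign within a tissue. In liver 16 lay above 0 (median 0.16), beside 55.9% of all tested genes, and 8 were separated higher, beside 23.5%. In spleen none lay above 0 (median -0.41), beside 43.5%, and 9 were separated lower, beside 21.9%. In fibroblasts 16 lay above 0 (0.15), beside 48.9%, and in brain 6 (-0.03), beside 46.1%. None was called by limma, DESeq2 or edgeR in any tissue. Of the upstream genes, Eif2ak1, which encodes the heme-regulated kinase HRI, read 202 and 86.5 in control livers against 221 and 118 in mutants, and 469 and 199 in control spleens against 155 and 149 in mutants. Ppp1r15a, which encodes GADD34, the stress-induced partner of the eIF2 phosphatase, read 279 and 81.4 in control livers compared with 330.2 and 132 in mutants, and 581 and 200.4 in control spleens against 154 and 166 in mutants. Both were high in the libraries with high erythroid sums. Eif2ak3, which encodes PERK, read 36.8 and 41.8 in control livers against 63.2 and 42.7 in mutants.

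Neighbouring stress programmes gave other patterns. Of 18 genes of the ATF6 and XBP1 branches of the unfolded protein response, 7 lay above 0 in liver, beside 55.9% of all tested genes. Their median was -0.06, and none was called by limma, DESeq2 or edgeR. Of 10 NRF2 targets 1 lay above 0 in liver (median -0.40), led by Nqo1, at 7.06 and 9.0 in controls compared with 4.28 and 4.67 in mutants. Of 12 PPARA and fasting targets 3 lay above 0 and 9 below (median -0.32). Among the 3 were Pdk4 (28.4 and 34.7 in controls, 145 and 133 in mutants) and Angptl4 (97.0 and 101 in controls, 272 and 298 in mutants). DESeq2 called both (adjusted p = 5.76e-10 and 2.54e-05), as it called 0.955% of all tested genes higher. Limma called neither (adjusted p = 0.184 and 0.336). Among the 9 were Ehhadh (445 and 1234 in controls, 102 and 539 in mutants) and Vnn1 (9.09 and 17.3, then 4.43 and 6.73). Of 8 genes of mitochondrial stress and protein quality, 6 lay above 0 (median 0.06).

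Of the gene lists other than cell type markers, the glucocorticoid targets had the highest medians in liver and spleen. All 10 lay above 0 in mutant liver (median 2.19), of which DESeq2 called 7, beside 0.955% of all tested genes, and limma none. Tat, which encodes tyrosine aminotransferase, read 334 and 536 in control livers against 5327 and 3290 in mutants. Zbtb16 read 20.03 and 28.9 in controls against 211 and 145 in mutants. In spleen all 9 tested lay above 0 (median 1.96, below the 2.16 of the pancreatic acinar markers). DESeq2 called 5 of them, beside 1.1% of all tested spleen genes in either direction. Only mutant 1 brought Tat and G6pc past the spleen filter. Tat read 0.689 and 0.179 in control spleens against 17.1 and 0.750 in mutants, and G6pc 0.965 and 0.477 against 7.14 and 0.161. Hepatocyte markers in spleen summed to 325 and 25.0 in controls and to 445 and 38.4 in mutants. In brain all 6 tested lay above 0 (median 0.42) with none called, and in fibroblasts 3 of 5 (median 0.05) with none called. Like Sesn2 and Trib3, Tat and Zbtb16 were higher in liver mutant 1 than in liver mutant 2. Their part in the member values was not tested.

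**Figure D5:**
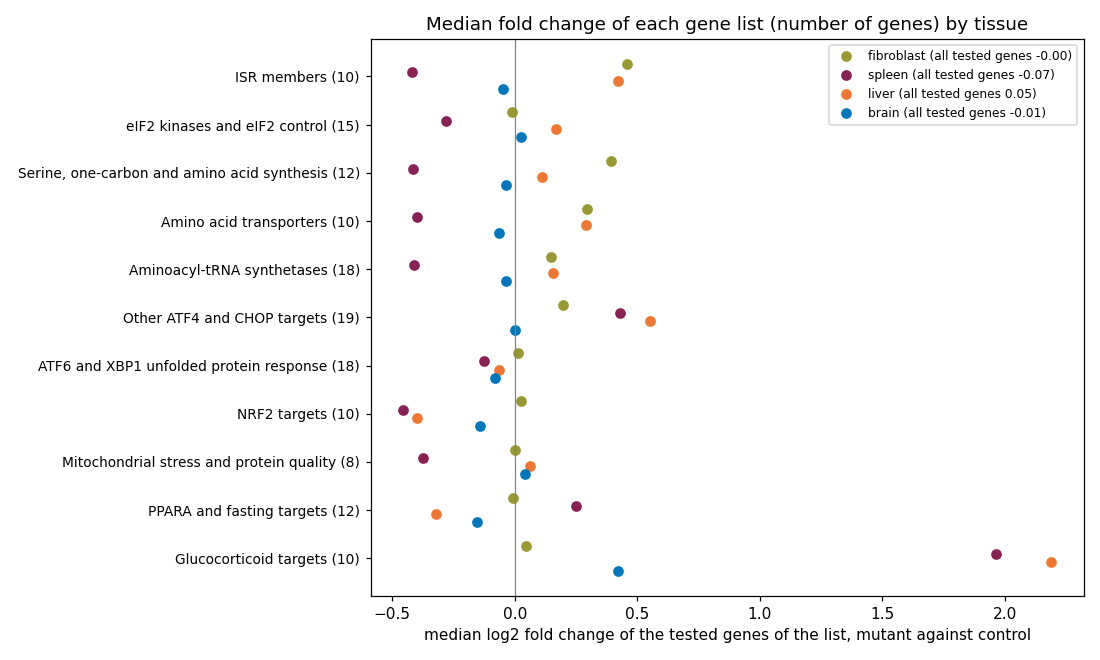
Median log2 fold change, mutant against control, of the tested genes of each list in fibroblasts, spleen, liver and brain, with the number of genes in the list in brackets and the median of all tested genes in the key. The glucocorticoid list reaches 2.19 in liver and 1.96 in spleen, and the members' list 0.42 in liver and -0.05 in brain.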

How the data were processed

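Gene tables of 18 RNA libraries (rRNA-depleted total RNA, reads of 50 nt) were used, 1 table per tissue. Per the submitters' processing notes, reads were counted with HTSeq 0.6.1 on GRCm38 and scaled with edgeR. The edgeR version, aligner and strand setting were not given in the sources used here. Deposited values, called signal, are the authors' scaled counts per gene. Whole reads were recovered from them, since 100% of values above 0 were multiples of the same step (tolerance 0.05). Of 46078 identifiers 45143 matched GENCODE M21. The other 935, with 0.179% of the reads of a library or less, were not tested.

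Genes whose mean signal in a tissue's table reached 1 were fitted as log2(signal + 0.5) with limma 3.58.1 (trend, two-sided, Benjamini-Hochberg at 0.05, R 4.3.3). Liver and brain were fitted together for the difference of their responses. DESeq2 1.42.0 and edgeR 4.0.16 (quasi-likelihood) on recovered reads, other pseudocounts, no filter, plain CPM, library weights, a replicate block and leaving out each library were alternatives. DESeq2 fits without each library, and with the block, were added after seeing the data. The scripts were tested on simulated data. RPKM used recovered reads and exon lengths. The 10 members and the lists were chosen with earlier results of these data known. Named were all members, up to 4 genes per list with the smallest limma p in liver and 2 in the other tissues, and the 5 genes most like the members' mean. Intervals cover counting error only.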

Additional observations from a re-analysis of the deposited data

Results flagged for a closer look

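The groups of Trib3 did not overlap in liver or in brain. Both liver mutants lay above both controls (log2 fold change 1.57) and both brain mutants below both controls (-0.52). Of all tested genes 23.5% were separated higher in liver and 16.3% lower in brain. The brain difference was not called by limma, DESeq2 or edgeR, and brain control 1 (1.26) and mutant 1 (1.16) were nearly equal. DESeq2's test of the difference between these responses gave 2.36 for Trib3 and 1.82 for Sesn2 on the log2 scale, both past its threshold, and limma's test passed neither. Trib3 was also separated upward in fibroblasts (0.87) and downward in brain (-0.52), and that difference was not tested. Atf5 was separated upward in fibroblasts (0.54) and downward in spleen (-0.91), and that difference was not tested either.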

How the results depend on the processing

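Limma's counts of called genes depended on the setting. DESeq2 on recovered reads called 3 genes in fibroblasts, 182 in spleen, 211 in liver, 41 in brain and 91 for the difference between liver and brain responses, where limma called 0, 0, 0, 4 and 6. With no filter on low values limma called 22 in spleen, 11 in liver, 13 in brain and 13 for the difference. Leaving out 1 library gave limma 0 to 177 calls in spleen (170 without mutant 1, 177 without mutant 2), 6 to 109 in brain and 1 to 52 for the difference.

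With the replicate block limma called 356 genes in spleen, 60 in liver and 10 for the difference. In liver Sesn2 then passed (1.89, limma adjusted p = 0.0449) and no other member did in any tissue. The DESeq2 calls of Sesn2 and Trib3, in liver and for the difference, were kept. Liver Atf5 was also called by DESeq2 (-1.14, adjusted p = 0.00587). DESeq2 with the block called 594 of 15075 liver genes, 312 of them lower. Deviations of same-numbered samples correlated at 0.58 in liver, -0.03 in spleen, 0.08 in brain and -0.08, 0.43 and 0.02 in fibroblasts. The main fits did not take the numbers as pairs in any tissue, although liver samples varied together by number. Why they did was not tested.

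Without 1 library the members' median ran from 0.15 to 0.63 in fibroblasts, -0.90 to 0.089 in spleen, -0.04 to 0.87 in liver and -0.11 to 0.02 in brain. In liver this was over 10 members, or 9 without control 1 (Fgf21 below the filter) or mutant 1 (Slc7a11 below it). Over the same 8 members, a choice added after seeing the data, it ran from 0.01 to 0.97. With other pseudocounts, no filter, plain CPM or edgeR the liver adjusted p (limma or edgeR) ran from 0.192 to 0.509 for Sesn2 and from 0.345 to 0.514 for Trib3. The fibroblast Sesn2 fold change, -0.00 by limma, was 0.0195 by DESeq2 and 0.0202 by edgeR, and ran from -0.24 to 0.28 without 1 library.

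Other fold changes, none of them called with all libraries, turned sign when 1 library was left out. In spleen Ddit3 ran from -0.90 to 0.28, Trib3 from -0.92 to 0.50, Asns from -1.66 to 0.089 (by DESeq2 from -1.60 to 0.13) and Sesn2 from -0.41 to 0.17. In liver Ddit3 ran from -0.042 to 1.05, Asns from -0.21 to 0.89 and Chac1 from -1.02 to 0.84. In brain Atf4 ran from -0.18 to 0.19, Atf5 from -0.24 to 0.045, Ddit3 from -0.11 to 0.016, Asns from -0.21 to 0.068, Chac1 from -0.25 to 0.51, Sesn2 from -0.021 to 0.17 and Psat1 from -0.19 to 0.10. The liver minus brain difference of Asns ran from -0.14 to 0.96 and that of Chac1 from -1.14 to 0.71. No other member value turned sign under these alternatives. The cause of these changes was not tested. A group of 2 libraries, and in Fgf21 a signal of 3 reads or fewer, limit what could be told apart.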
